A study of Saccharomyces cerevisiae with 55 samples.

Results

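The yeast (Saccharomyces cerevisiae) mutant in which lysine 12 of histone H4 alone was replaced by arginine, K12R, was compared with its parental strain on 3 of the 55 2-colour expression arrays of the series. These 3 arrays were taken by their titles, which name K12R as the only substitution. RNA of the mutant was in channel 2 and RNA of the parental strain in channel 1 of each array. Array 1 (title ending "(s)") and array 2 (no ending) set strain MDY457 against MDY453, and array 3 (ending "(2)") set strain MDY474 against MDY470. The labels do not say what the endings stand for, nor whether arrays 1 and 2 came from separate cultures, so the spread between arrays that enters the p-values may in part be technical.

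The whole series covers the 15 combinations of arginine at lysines 5, 8, 12 and 16 of the H4 tail. Beside K12R, the single mutants K5R (MDY455 and MDY472), K8R (MDY456 and MDY473) and K16R (MDY458 and MDY475) were used, with 3 arrays each, and so were the mutants that carry K12R together with other substitutions. All were measured against MDY453 or MDY470. The labels do not give the growth medium, the strain background, the mating type or the state of the other histone H4 gene copy. A ratio gives no expression level by itself, and the mating type was not inferred from the ratios.

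Histone H4 has a flexible N-terminal tail whose lysines are acetylated and deacetylated by enzymes that work at genes and on free histones. Arginine has the same charge as lysine and takes no acetyl group, so K-to-R mutants stand for a tail that stays unacetylated at that position. In yeast the NuA4 complex, with Esa1 as its catalytic subunit, acetylates the H4 tail in chromatin, and the Hat1-Hat2 enzyme acetylates new H4 at lysine 12 before it is deposited. Near chromosome ends, silencing by Sir proteins depends on the state of lysine 16 above all.

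All values are log2 ratios, most likely of mutant over parental strain (a positive value means more RNA in the mutant). The direction and the base are not stated in the sources used here. Every "higher" and "lower" below rests on that direction and would turn if the ratio ran the other way. Base 2 was inferred from the limit of the deposited values, which is log2 of 100. The table gave 5540 genes, of which 5531 had a value on all 3 K12R arrays. Over genes, the SD of the log2 ratios was 0.150, 0.189 and 0.169 on K12R arrays 1 to 3, with a mean of 0.169 ± 0.0195 (SD, n = 3), against means of 0.152 in K5R, 0.156 in K8R and 0.265 in K16R. A change of 2-fold or more was seen for 2, 8 and 10 genes on the 3 K12R arrays, and only 1 of those values was an increase. Across genes, arrays 1 and 2 of K12R correlated at r = 0.605, arrays 1 and 3 at 0.553 and arrays 2 and 3 at 0.480, where genes are not independent replicates. Some of these arrays were closer to arrays of other mutants that share their parental strain and title ending: array 2 correlated at 0.758 with the K5R array of that ending (0.416 with that of K8R), and array 3 at 0.738 with that of K5R and 0.719 with that of K8R. For array 1 the values were 0.570 and 0.527. How much of the profile the shared parental strain and ending contribute cannot be told apart from what the mutants share. Spot intensities are not in the table used here, so weak and strong spots could not be told apart.

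The probes of the histone H4 genes HHF1 and HHF2 report RNA amount and cannot show a substitution of 1 residue, so they do not check the labels. HHF1 had log2 ratios of 0.32, 0.30 and 0.38 on arrays 1 to 3, and HHF2 had 0.36, 0.27 and 0.34. The fitted means were 0.34 ± 0.11 for HHF1 (SE, limma adjusted p = 0.0737) and 0.32 ± 0.10 for HHF2 (SE, limma adjusted p = 0.0638), so neither passed the threshold of 0.05.

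In the K12R mutant 99 genes rose and 60 fell relative to the parental strain (60 higher and 99 lower if the ratio runs the other way), and the changes were small. Those 159 genes are 2.87% of the 5540 tested, 1.79% higher and 1.08% lower. The largest decreases were those of 4 sugar transporter genes, HXT13, HXT15, HXT16 and HXT17, the only genes past the threshold that changed by 2-fold or more, and the largest increases were those of stress genes, led by YGP1 and DDR2. The log2 ratios of the genes that rose lay between 0.20 and 0.81 (median 0.32), and those of the genes that fell between -1.19 and -0.19 (median -0.36). All 159 had the same sign on the 3 arrays. The test is limma's moderated test of the fitted mean ratio against 0, with the spread estimated over all mutants of the series, and the parental strain's own variation is not part of it. The number of genes past the threshold differed widely between fits: it was 2251 (40.6%; 21.2% higher and 19.4% lower) when only the 4 single mutants were fitted, 843 from the K12R arrays alone, 429 without the strain block, 316 with the title ending as a term, and 25 with the MDY457 arrays averaged. It was 115, 22 and 10 without array 1, 2 and 3, and 7 of the 159 genes passed without each array in turn: HXT13, HXT15, HXT16, HXT17, YGP1, GRE1 and YKR041W.

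The 4 HXT genes encode members of the hexose transporter family that lie towards chromosome ends and are known to carry sugar alcohols such as mannitol and sorbitol. HXT15 had log2 ratios of -1.28, -0.87 and -1.39 on arrays 1 to 3, a fitted mean of -1.19 ± 0.15 (SE, 2.29-fold lower, limma adjusted p = 8.35e-07). HXT16 had -0.98, -0.83 and -1.41, with a fitted mean of -1.10 ± 0.14 (SE, 2.14-fold lower, limma adjusted p = 2.04e-06). The lowest array of both genes was the one of strain MDY474. HXT13 had -1.03, -0.91 and -1.19, a fitted mean of -1.05 ± 0.16 (SE, limma adjusted p = 7.60e-05), and HXT17 had -0.99, -1.01 and -1.10, a fitted mean of -1.04 ± 0.17 (SE, limma adjusted p = 0.000193). The weakest value of the 4 genes on any array was -0.83, that of HXT16 on array 2. The genes are near-identical copies, so a probe of one can bind RNA of the others and the 4 values are not 4 independent measurements.

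Of the 24 measured genes that lie within 3 places of the HXT genes, 18 had a fitted mean below 0 and 2 passed the threshold. Over all genes 1.08% were lower past the threshold, and the median log2 ratio was 6.95e-05. Of the 237 measured genes within 20 kb of a chromosome end, 165 had a fitted mean below 0 and 8.44% were lower past the threshold. The neighbour counts are therefore not shown to be particular to the HXT genes. The direct neighbours of HXT15, SOR2 (sorbitol dehydrogenase) and THI13 (thiamine synthesis), had fitted mean log2 ratios of 0.00414 and -0.04, and those of HXT16, THI11 and SOR1, had -0.09 and -0.28, with no adjusted p under 0.05. DSF1 beside HXT13 and MAN2 beside HXT17, which both encode mannitol dehydrogenases, had -0.23 and -0.21 and did not pass the threshold (limma adjusted p = 0.127 and 0.113). The 2 that passed were YDL241W near HXT15, at -0.53 ± 0.15 (SE), and AIF1 near HXT17, at -0.59 ± 0.16 (SE). All 6 genes around HXT17 had a fitted mean below 0, among them COS10 at -0.78, BSC5 at -0.34 and YNR071C at -0.33, which did not pass (limma adjusted p = 0.114, 0.0922 and 0.207). The difference between an HXT gene and its neighbours was not tested. AIF1 is the yeast counterpart of the mammalian apoptosis-inducing factor.

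The isomaltase genes IMA2, IMA3 and IMA4 fell as well. Of the 26 measured genes of the subtelomeric sugar list, 8 were lower and 0 higher in K12R (30.8% lower, against 1.08% of all genes). The list's median log2 ratio was -0.19, against 6.95e-05 over all genes. It was below 0 in the other single mutants too, at -0.17 in K5R, -0.20 in K8R and -0.55 in K16R. The 8 were the 4 HXT genes, the 3 IMA genes and AIF1, whose known role is not in sugar use. HXT13 and IMA2 lie more than 20 kb from an end. The list also holds SRY1, FDC1 and PAD1, which did not pass. Members of this list and of the other gene lists were chosen with earlier results of these data known. The share of a list past the threshold is therefore a description and no independent support. IMA2 had log2 ratios of -0.49, -0.38 and -0.57 on arrays 1 to 3, IMA4 had -0.33, -0.25 and -0.60, and IMA3 had -0.31, -0.21 and -0.54. IMA3 and IMA4 are near-identical, so their values cannot be separated. SUC2, the invertase gene, had -0.38, -0.38 and -0.38 and did not pass (limma adjusted p = 0.0823). The count of 8 was 4 without array 3, 8 without array 1 and 7 without array 2.

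**Figure D1:**
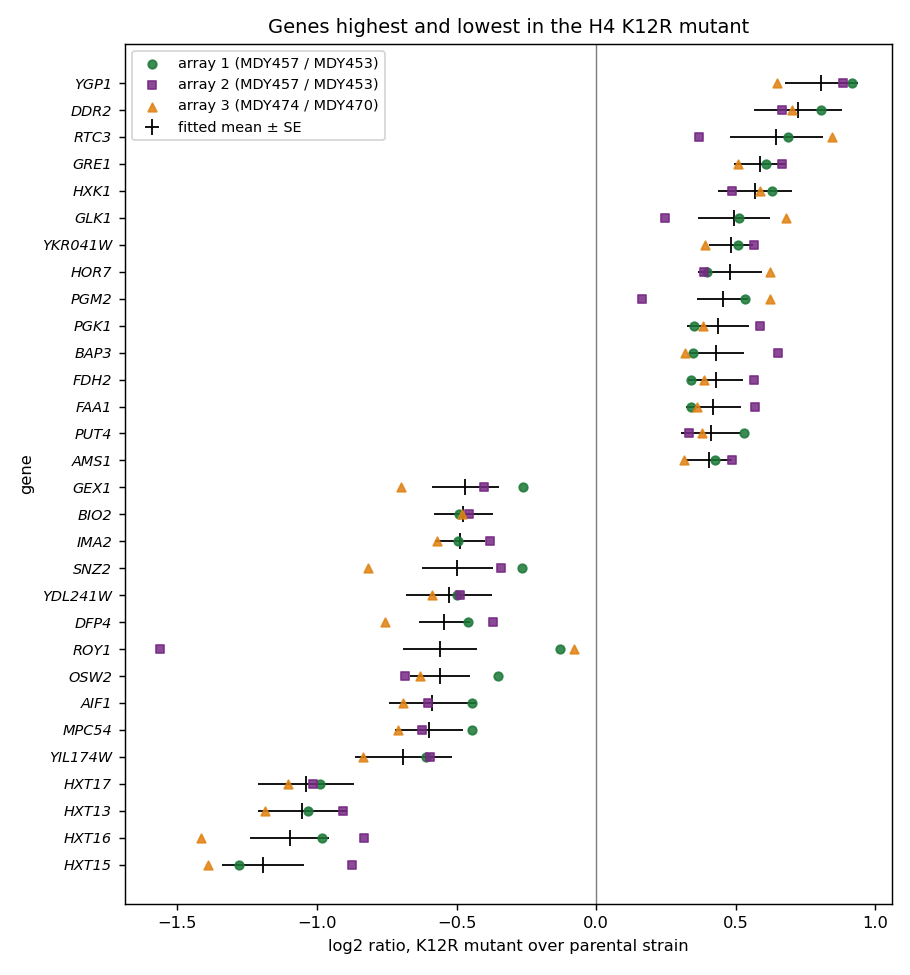
Log2 ratio of K12R over parental strain (x axis) for the 15 genes with the highest and the 15 with the lowest fitted means among those past the threshold (y axis); points are the 3 arrays, and the black mark with its bar is the fitted mean ± SE. The 4 HXT genes stand apart at -1.04 or below on average, and ROY1 rests on array 2 alone.

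Among the remaining genes with the lowest ratios were genes of spore formation, of vitamin synthesis and of unknown function. MPC54, a component of the meiotic spindle plaque, had -0.44, -0.62 and -0.71 (fitted mean -0.60 ± 0.12, SE, limma adjusted p = 0.00405). OSW2, which acts in the outer spore wall, had -0.35, -0.68 and -0.63 (fitted mean -0.56 ± 0.11, SE, limma adjusted p = 0.00208). BIO2, the biotin synthase gene, had -0.49, -0.46 and -0.48, the closest agreement among arrays of the lowest 15 genes, and a fitted mean of -0.48 ± 0.11 (SE, limma adjusted p = 0.00765). SNZ2, a gene of vitamin B6 synthesis near a chromosome end, had -0.26, -0.34 and -0.82, and GEX1, a glutathione exchanger gene, had -0.26, -0.40 and -0.70. For both of these the MDY474 array was the lowest. YIL174W had -0.61, -0.60 and -0.84. DFP4 had -0.46, -0.37 and -0.76 (fitted mean -0.54 ± 0.09, SE, limma adjusted p = 0.000239). ROY1, an F-box-like protein gene, had -0.13 and -0.08 on arrays 1 and 3, against -1.56 on array 2, so its fitted mean of -0.56 rests on 1 array. In all, 5 of the 159 genes had 1 array more than 3 times as far from 0 as each of the others, and that array was array 2 each time: EDS1, MRX11, PDR17, ROY1 and YVH1.

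A larger share of the genes close to a chromosome end than of the genes further in was lower in K12R. Of the 237 measured genes within 20 kb of an end, 20 were lower (8.44%) and 2 higher (0.844%), whereas beyond 20 kb 40 of 5298 were lower (0.755%) and 97 higher (1.83%). Between 5 and 10 kb the share lower was 15.3% (9 of 59 genes), in the outermost 5 kb it was 3.12% (2 of 64 genes), and between 20 and 40 kb it was 2.27% (6 of 264 genes). The median log2 ratio of the genes within 20 kb was -0.08 in K12R, against -0.02 in K5R, -0.03 in K8R and -0.10 in K16R. Within K12R the medians were -0.04, -0.04 and -0.11 on arrays 1 to 3, so the array of MDY474 against MDY470 was the lowest. The count of 20 was 17 without array 1, 8 without array 2 and 3 without array 3. Beside genes named above, the 20 held the yapsin protease genes YPS5 (fitted mean -0.46) and YPS6 (-0.38), IMD2 (-0.29), VTH2 (-0.36), a vacuolar sorting receptor gene, EMA35 (-0.39) and the uncharacterized reading frames YAL064W (-0.37), YER187W (-0.35), YOL163W (-0.32) and YPL278C (-0.41). The 2 higher genes were HXK1 and FDH2. Distances were read from the R64 reference annotation, and these genes include families of close copies whose probes can cross-hybridise.

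**Figure D2:**
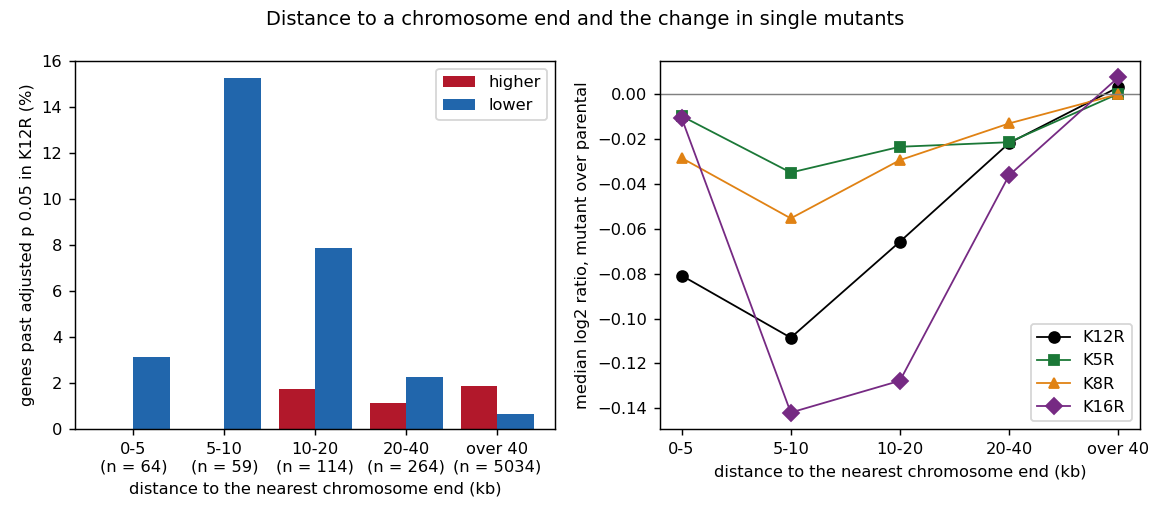
Left, share of genes (y axis, percent) that were higher or lower in K12R past the adjusted p threshold, by distance of the gene to the nearest chromosome end (x axis, kb; number of genes under each class). Right, median log2 ratio of the same classes (y axis) in the 4 single mutants; the share of lower genes in K12R was 15.3% between 5 and 10 kb and 0.675% beyond 40 kb.

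COS genes and seripauperin genes, 2 further families at chromosome ends, had no member past the threshold. The COS genes code for proteins of the endosome membrane. Of 11 measured, 9 had a fitted mean below 0 (median -0.13). The list's median was above 0 in the other single mutants, at 0.11 in K5R, 0.05 in K8R and 0.24 in K16R. COS10 had log2 ratios of -0.72, -0.83 and -0.78 on the 3 arrays, but with an SE of 0.28 its adjusted p was 0.114. When only the single mutants were fitted, its adjusted p was 8.99e-09. Of 23 seripauperin genes, 22 had a fitted mean below 0 (median -0.08), against 165 of the 237 genes within 20 kb of an end. Their median was below 0 in the other single mutants too, at -0.07 in K5R, -0.05 in K8R and -0.12 in K16R. The lowest in K12R was PAU7, at -0.24, -0.08 and -0.86 on the 3 arrays. The members of the family share most of their sequence.

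Stress genes made up the largest group that rose. Of the 50 measured general stress genes, 12 were higher and 0 lower in K12R (24.0%, where the share over all genes was 1.79%), 48 had a fitted mean above 0, and the median log2 ratio was 0.23. On arrays 1 to 3 the list's median was 0.31, 0.13 and 0.29, so array 2 was the lowest of the 3. In the other single mutants the list's median was above 0 too, at 0.08 in K5R, 0.12 in K8R and 0.14 in K16R. The count of 12 was 5 without array 1, 6 without array 2 and 2 without array 3, and 35 when only the single mutants were fitted. The arrays measure whole cultures, so a change in every cell and a change in the share of cells cannot be told apart.

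YGP1, which encodes a secreted glycoprotein made when nutrients run out, had log2 ratios of 0.92, 0.89 and 0.65 on arrays 1 to 3, a fitted mean of 0.81 ± 0.13 (SE, 1.75-fold higher, limma adjusted p = 0.000141). DDR2, a gene induced by many stresses, had 0.81, 0.66 and 0.70, a fitted mean of 0.72 ± 0.16 (SE, limma adjusted p = 0.00765). The lowest value of either gene on any array was 0.65. GRE1, a hydrophilin gene induced by osmotic stress, had 0.61, 0.67 and 0.51, a fitted mean of 0.59 ± 0.09 (SE, limma adjusted p = 0.000103). RTC3 had 0.69, 0.37 and 0.85 and HOR7, a gene induced by high osmolarity, had 0.40, 0.39 and 0.62. OM45, which encodes a protein of the mitochondrial outer membrane, had 0.47, 0.32 and 0.36. HSP12, a small heat shock gene often used as a marker of this response, had 0.68, 0.52 and 0.42, and its fitted mean of 0.53 ± 0.16 (SE, limma adjusted p = 0.0523) fell just short of the threshold. Other well-known members of the list stayed closer to 0. CTT1, the cytosolic catalase gene, had 0.00291, 0.04 and 0.16, and HSP26 had 0.37, -0.05 and 0.10. The heat shock chaperone list had 1 of 28 measured genes higher and 0 lower (3.57% higher, against 1.79% of all genes, median 0.04). That gene was MDJ1, a mitochondrial co-chaperone, at 0.36, 0.40 and 0.23.

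Genes of storage carbohydrates and of the first steps of glucose use rose with the stress genes, and the lists overlap. Of 19 measured trehalose and glycogen genes 5 were higher and 0 lower in K12R (26.3%, against 1.79% of all genes, median 0.21). The list's median was also above 0 in K5R (0.10), K8R (0.12) and K16R (0.06). For 4 of the 5 higher genes array 2 gave the lowest ratio of the K12R arrays. PGM2, the phosphoglucomutase that supplies glucose units to both stores, had 0.54, 0.17 and 0.62 (fitted mean 0.45 ± 0.09, SE, limma adjusted p = 0.00405). GLC3, the glycogen branching enzyme gene, had 0.39, 0.22 and 0.46, and GSY1, a glycogen synthase gene, had 0.39, 0.06 and 0.45. The trehalase genes NTH1 and NTH2 had fitted means of 0.21 and 0.25. TPS2, the trehalose phosphatase gene, had 0.37, 0.09 and 0.54, and its adjusted p was 0.0649. Without array 3 none of the 19 passed limma's threshold, without array 1 only 1 did and without array 2 only 2 did.

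HXK1, a hexokinase gene, had log2 ratios of 0.63, 0.49 and 0.59 on arrays 1 to 3 (fitted mean 0.57 ± 0.13, SE, limma adjusted p = 0.0118), and GLK1, the glucokinase gene, had 0.51, 0.25 and 0.68 (fitted mean 0.49 ± 0.13, SE, limma adjusted p = 0.0291). HXK2, the main hexokinase of cells grown on glucose, had -0.02, 0.02 and -0.13. Of 18 measured glucose transporter and kinase genes 3 were higher and 0 lower (16.7%, against 1.79% of all genes, median 0.12); the third was MTH1, a repressor of transporter genes in the glucose sensing pathway, at 0.22, 0.20 and 0.34. The major transporter genes HXT1 and HXT3 had fitted means of -0.13 and 0.05, whereas HXT6, a high-affinity transporter, had 0.41, 0.32 and 0.46 and an adjusted p of 0.0553, though its probe may also bind RNA of the near-identical HXT7. The count of 3 was 1 without array 1, 1 without array 2 and 0 without array 3. The list's median was 0.07 in K5R, 0.09 in K8R and 0.06 in K16R.

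The rest of the 15 highest genes had varied roles. PGK1, the phosphoglycerate kinase gene, had 0.35, 0.59 and 0.38 (fitted mean 0.44 ± 0.11, SE, limma adjusted p = 0.027). YKR041W had 0.51, 0.57 and 0.39 (fitted mean 0.48 ± 0.08, SE, limma adjusted p = 0.000141). BAP3, an amino acid permease gene, had 0.35, 0.65 and 0.32. FAA1, a fatty acyl-CoA synthetase gene, had 0.34, 0.57 and 0.36, and AMS1, the vacuolar mannosidase gene, had 0.43, 0.49 and 0.31. FDH2, a formate dehydrogenase gene, had 0.34, 0.56 and 0.39; its close paralogue FDH1 can share its signal. PUT4, the proline permease gene, had 0.53, 0.33 and 0.38. With the arginase gene CAR1 (fitted mean 0.30) it made 2 of 19 proline and arginine genes higher (10.5%, against 1.79% of all genes) and 0 lower.

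**Figure D3:**
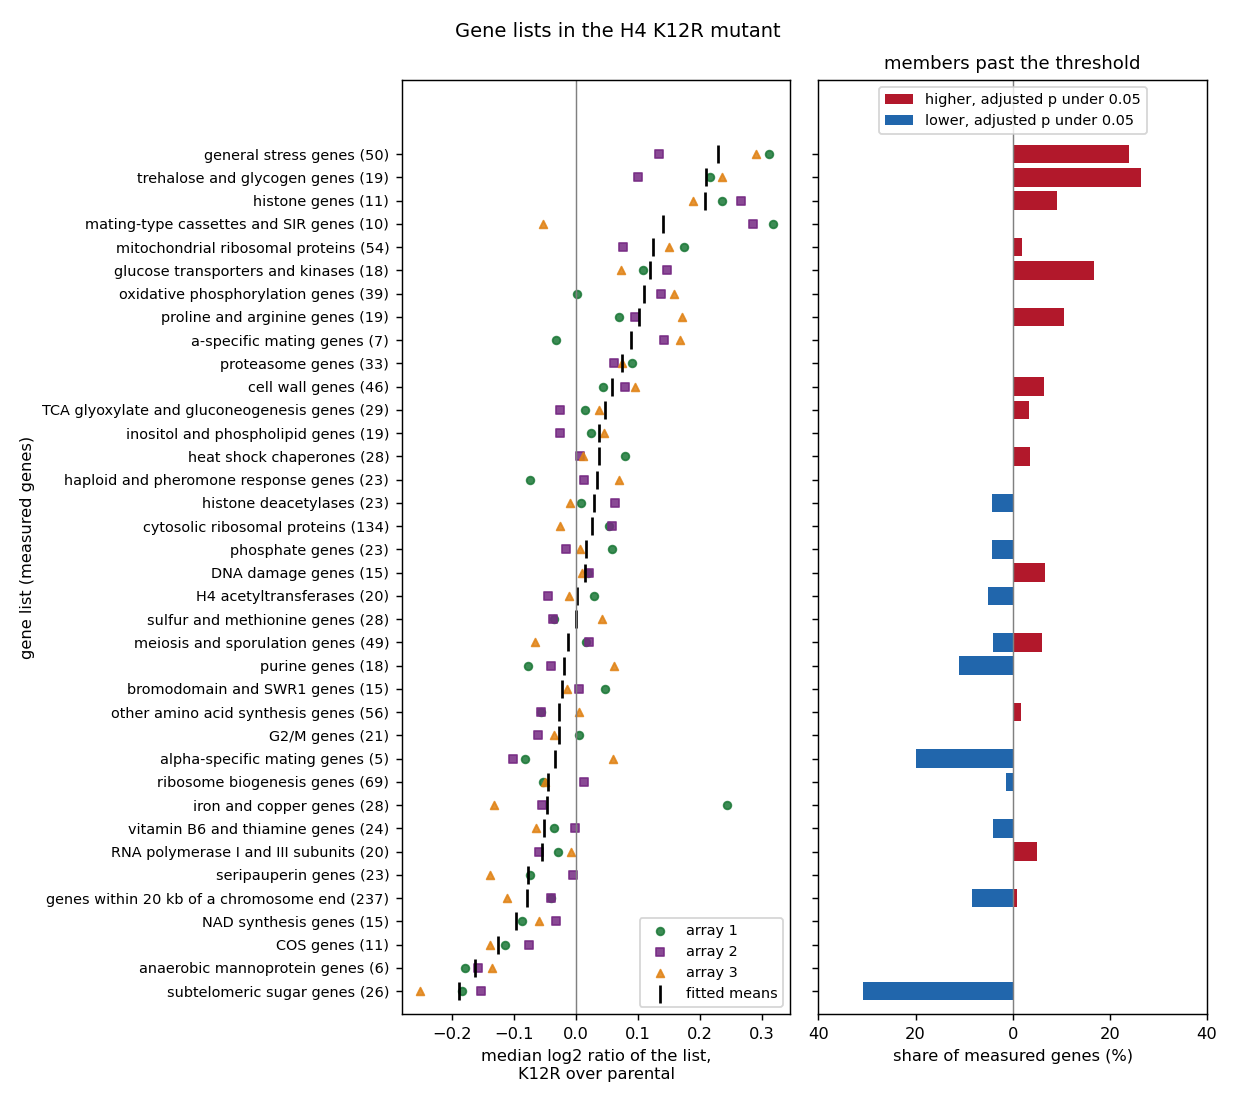
Left, median log2 ratio of each gene list in K12R over parental strain (x axis) on each of the 3 arrays and for the fitted means; the number of measured genes stands in brackets. Right, share of each list that was higher (to the right) or lower (to the left) past the adjusted p threshold; the fitted medians run between -0.19 for the subtelomeric sugar genes (30.8% lower) and 0.23 for the general stress genes (24.0% higher).

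Mating genes had 1 member past the threshold in K12R. None of the 7 a-specific genes and none of the 23 haploid and pheromone response genes passed limma's threshold (unadjusted p under 0.05 held for 1012 of all 5540 genes). STE2, the receptor for alpha-factor, had log2 ratios of -0.06, 0.14 and 0.17 on arrays 1 to 3, and GPA1, the G protein subunit bound to the pheromone receptor, had 0.12, 0.04 and 0.18. MFA1, an a-factor gene, was the highest of the list at 0.43, 0.62 and 0.51, with an adjusted p of 0.109. Of 5 alpha-specific genes 1 was lower, where over all genes 1.08% were lower. It was AFB1, which encodes a secreted barrier to a-factor, at -0.37, -0.21 and -0.41 (limma adjusted p = 0.0311).

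Genes of the silent mating cassettes and the SIR silencing factors gave 0 of 10 past the threshold. HMLALPHA2 had 0.40, 0.31 and 0.08 and MATALPHA2 had 0.49, 0.56 and 0.22, with adjusted p-values of 0.477 and 0.198. The alpha genes at MAT and at the silent cassette have the same sequence, so these probes cannot tell the loci apart. SIR2, the silencing deacetylase gene, had 0.36 and 0.39 on arrays 1 and 2 but -0.37 on array 3, SIR3 had a fitted mean of -0.02, and SIR4 had -0.18, -0.18 and -0.08.

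Most histone genes had ratios above 0. Of 11 measured, 1 was higher and 0 lower in K12R (9.09%, against 1.79% of all genes, median 0.21), and 10 had a fitted mean above 0. The list's median was also above 0 in K5R (0.11), K8R (0.14) and K16R (0.07). The higher gene was HHT2, a histone H3 gene that shares a promoter with HHF2, at 0.31, 0.39 and 0.46 (fitted mean 0.39 ± 0.09, SE, limma adjusted p = 0.0149). HTA1 had 0.33, 0.42 and 0.22, and the variant gene HTZ1 had -0.02, -0.08 and -0.0085. The fitted mean of HHT1 was 0.19, that of HTA2 0.21, that of HTB1 0.26, that of HTB2 0.08, that of HHO1 (linker histone) 0.19 and that of CSE4 (centromeric histone) 0.06. The histone genes come in pairs of similar coding sequence, and how far the probes tell them apart is not given in the sources used here.

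Among the genes of enzymes that write and remove H4 acetylation 2 passed the threshold, both lower, where over all genes 1.08% were lower. Of 20 acetyltransferase genes 1 was lower, ELP3, the catalytic subunit of Elongator, at -0.25, -0.19 and -0.25 (limma adjusted p = 0.0379). ESA1 had a fitted mean of 0.07 and HAT1 0.05; HAT2, its partner, had 0.09. Of 23 deacetylase genes 1 was lower, RCO1, a subunit of the Rpd3S complex, at -0.19, -0.21 and -0.18 (limma adjusted p = 0.044). RPD3 itself had 0.00491 and -0.02 on arrays 1 and 3 and -0.66 on array 2. None of 15 bromodomain and SWR1 genes passed; BDF1, whose bromodomains bind acetylated H4, had 0.23, 0.00439 and 0.26, and BDF2 had 0.23, 0.14 and 0.20 (limma adjusted p = 0.069).

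Metabolic lists held a few single genes past the threshold, where over all genes 1.79% were higher and 1.08% lower. PHO81, the inhibitor of the phosphate-responsive kinase, was the only 1 of 23 phosphate genes that passed, at -0.39, -0.19 and -0.57. The paralogues IMD2 and IMD3, which encode the enzyme for the first step from IMP to guanine nucleotides, were the 2 lower genes of 18 purine genes, with fitted means of -0.29 and -0.36. They are close copies whose probes may share signal. Of 56 other amino acid synthesis genes 1 was higher, ARO9, an aromatic aminotransferase gene, at 0.34, 0.32 and 0.52. FBP1, a gluconeogenic phosphatase gene, was the 1 higher gene of 29 in the TCA, glyoxylate and gluconeogenesis list, at 0.32, 0.38 and 0.32. Of 24 vitamin B6 and thiamine genes only SNZ2 passed, and it was lower.

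Of 46 cell wall genes 3 were higher (6.52%, against 1.79% of all genes) and 0 lower: the mannoprotein genes CWP1 (0.33, 0.28 and 0.29) and CCW12 (0.15, 0.42 and 0.32) and the glucanase-family gene SCW4 (0.24, 0.35 and 0.37). Of 49 meiosis and sporulation genes 3 were higher (6.12%) and 2 lower (4.08%, against 1.08% of all genes). REC102 (0.35, 0.49 and 0.17) and MEK1 (0.20, 0.47 and 0.17), both needed for meiotic recombination, and the sporulation gene SPS4 (fitted mean 0.32) were higher, and OSW2 and the meiotic helicase gene HFM1 (-0.39, -0.38 and -0.40) were lower. The 3 higher genes all had their largest ratio on array 2. One gene each was higher among mitochondrial ribosomal proteins (MRPL4, fitted mean 0.28, of 54), DNA damage genes (DDI1, 0.25, of 15) and RNA polymerase I and III subunits (RPC37, 0.35, of 20), and 1 was lower among 69 ribosome biogenesis genes (RRP5, -0.30). For the mitochondrial ribosomal proteins (1.85% higher) and the ribosome biogenesis genes (1.45% lower) those shares are near the shares over all genes.

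The remaining lists gave 0 members past limma's threshold, among them 134 cytosolic ribosomal proteins (median 0.02), 39 oxidative phosphorylation genes (median 0.11, with 31 fitted means above 0), 33 proteasome genes (median 0.07), 28 sulfur and methionine genes, 28 iron and copper genes, 21 G2/M genes, 19 inositol and phospholipid genes, 15 NAD synthesis genes and 6 anaerobic mannoprotein genes (median -0.16). In the iron and copper list the median was 0.24 on array 1 and -0.05 and -0.13 on arrays 2 and 3.

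The comparison with K5R and K8R set K12R against the mean of these mutants, not against each mutant alone. No gene passed the threshold for K12R minus the mean of K5R and K8R (0 of 5540, 0.0%), and limma's unadjusted p was under 0.05 for 41 genes. The 95% interval of the difference had a median half-width of 0.21, so log2 differences of that size could not be detected for a typical gene. The 5 genes with the smallest p among those also at the ends of the K12R list, named after their values were seen, were DFP4, GRE1, HXT15, HXT16 and ROY1. HXT15 had -1.28, -0.87 and -1.39 in K12R, against -0.67, -0.49 and -0.63 in K5R and -0.62, -0.46 and -0.74 in K8R, and the arrays of K12R lay below all arrays of both others. The difference was -0.59 with a 95% interval of -0.95 to -0.23. For HXT16 it was -0.57 (-0.92 to -0.22) and for DFP4 -0.42 (-0.64 to -0.19). GRE1 averaged 0.59 in K12R, against 0.20 in K5R and 0.22 in K8R, a difference of 0.38 (0.15 to 0.60). YGP1 averaged 0.81 in K12R, against 0.43 in K5R and 0.24 in K8R, a difference of 0.47 (0.15 to 0.79). ROY1 rests on array 2, as above.

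When only the arrays of the 4 single mutants were fitted, 17 genes differed between K12R and the mean of K5R and K8R, 6 higher and 11 lower. The 11 were HXT13, HXT15, HXT16, HXT17, COS8, COS10, DFP4, YIL174W, YGL260W, FDC1 and POR2, and the 6 were YGP1, HSP12, GRE1, DDR2, OM45 and YKR041W. In this fit HXT17 differed by -0.38 ± 0.05 (SE, limma adjusted p = 0.00471) and HSP12 by 0.44 ± 0.07 (SE, limma adjusted p = 0.0117). Of the lower genes, HXT15, HXT16, HXT17, COS8, COS10, DFP4, YGL260W and FDC1 belong to genes near chromosome ends. FDC1, a decarboxylase gene, was -0.19 in K12R on average, against 0.04 in K5R and 0.15 in K8R. In the fit over all mutants K12R had 159 genes past the threshold against its parental strain, K5R had 35 and K8R had 18. Those counts were not compared by a test, and the 3 mutants share the parental strains.

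**Figure D4:**
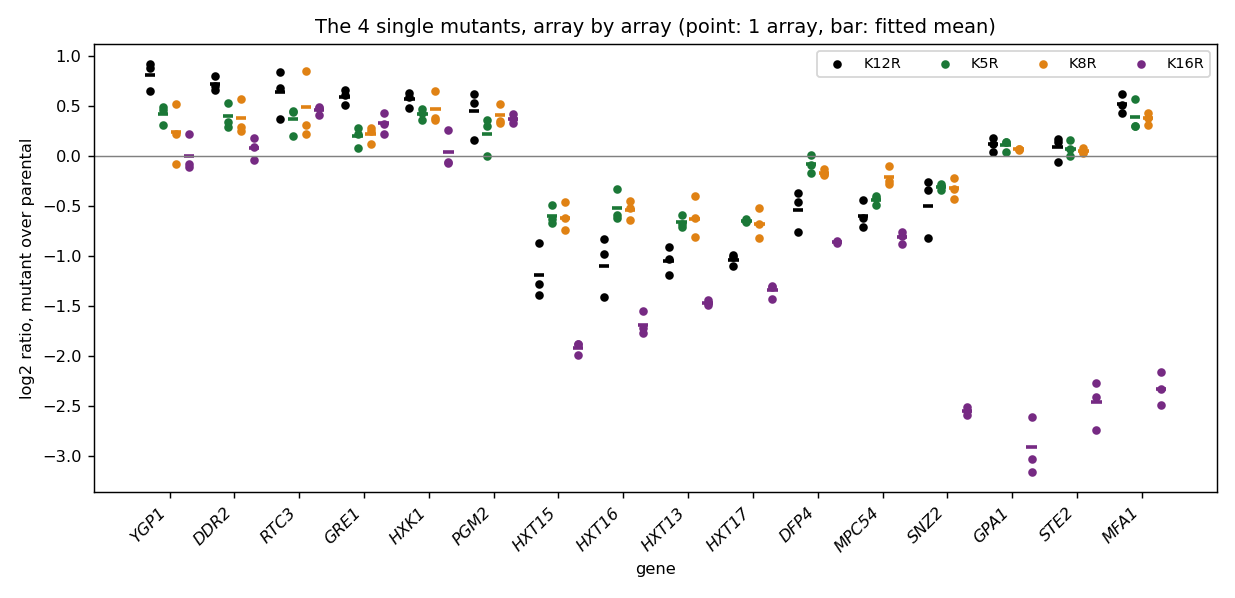
Log2 ratio of mutant over parental strain (y axis) for 16 genes (x axis) in the single mutants K12R, K5R, K8R and K16R; each point is 1 array and each bar the fitted mean. K12R lies below K5R and K8R at the HXT genes, and K16R lies lowest at SNZ2, GPA1, STE2 and MFA1.

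The comparison with K16R asks where loss of lysine 12 differed from loss of lysine 16. K16R had 1 array against MDY453 and 2 against MDY470, where K12R had 2 and 1. The parental strains therefore do not cancel fully in the difference. With a term for the parental strain, chosen after seeing the data, 138 genes passed, 129 of them shared with the main fit. For K12R minus K16R 133 genes passed the threshold (2.40%), 108 higher in K12R (1.95%) and 25 lower (0.451%), and 36 of the higher and 2 of the lower differed by 2-fold or more. Mating genes led the difference, since they were low in K16R and near 0 in K12R. GPA1 had 0.12, 0.04 and 0.18 in K12R, against -3.03, -2.61 and -3.16 in K16R, a difference of 3.03 ± 0.14 (SE, 8.18-fold higher in K12R, limma adjusted p = 4.47e-22). STE2 had -0.06, 0.14 and 0.17 in K12R, against -2.41, -2.27 and -2.74 in K16R (difference 2.55 ± 0.16, SE, limma adjusted p = 9.13e-17). The a-factor genes MFA1 and MFA2 and BAR1, the alpha-factor protease gene, differed by 2.85, 2.73 and 2.27. All 7 a-specific genes and 16 of 23 haploid genes were higher in K12R than in K16R.

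Genes of vitamin B6 synthesis at chromosome ends were also higher in K12R than in K16R. SNZ2 had -0.26, -0.34 and -0.82 in K12R, against -2.55, -2.59 and -2.51 in K16R (difference 2.06, limma adjusted p = 4.07e-12). In the vitamin B6 and thiamine list 6 of 24 genes were higher in K12R than in K16R, against 1.95% of all genes. The list holds close copies near chromosome ends whose probes can cross-hybridise, so the 6 are not independent measurements. In the opposite direction, COS12 had 0.37, -0.29 and -1.28 in K12R, against 0.93, 0.88 and 1.36 in K16R (difference -1.50 ± 0.24, SE, limma adjusted p = 1.22e-05). HPF1, a cell wall mannoprotein gene, had 0.20, 0.26 and 0.26 in K12R, against 1.58, 1.27 and 1.60 in K16R (difference -1.23 ± 0.19, SE, limma adjusted p = 7.13e-06). YAR068W, CSS1 and TIR3 were lower in K12R than in K16R with differences of -0.82, -0.72 and -0.57; TIR3 did not pass without any 1 of the K12R arrays (adjusted p = 0.0831 to 0.155) and CSS1 did not without array 3 (0.0865).

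At the genes that carried the K12R pattern the contrast was mixed. HXT15 fell less in K12R than in K16R (-1.19 in K12R, against -1.92 in K16R, difference 0.73 ± 0.21, SE, limma adjusted p = 0.0427), whereas the differences of HXT16, HXT13 and HXT17, at 0.59, 0.41 and 0.30, did not pass. YGP1 was higher in K12R (0.81 in K12R, against 0.00395 in K16R on average, difference 0.80 ± 0.18, SE, limma adjusted p = 0.00478), and it was the 1 general stress gene that differed.

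K12R was also measured on top of other substitutions. The change that K12R brought when it was added to K5R, K8R or K16R, averaged over the 3, was compared with the change of K12R alone; 3 genes passed the threshold (0.0542%), 0 higher and 3 lower, and limma's unadjusted p was under 0.05 for 778. YIR042C changed by -0.93 when K12R was added and by -0.12 with K12R alone (difference -0.81 ± 0.14, SE, limma adjusted p = 0.00472). DAL4, the allantoin permease gene, changed by -0.64 when K12R was added and by -0.07 alone (difference -0.57 ± 0.11, SE, limma adjusted p = 0.00516). YVH1, a phosphatase gene with a role in ribosome assembly, changed by -0.18 when added and by 0.20 alone, and the value alone leans on array 2 (0.13, 0.39 and 0.12). Without array 2 the count was 0, without the strain block it was 116, and with the title ending as a term it was 96. The arrays were spread unevenly over the parental strains. Against MDY453 and MDY470, K8R/K12R had 0 and 3 arrays where K8R had 2 and 1. K12R/K16R had 3 and 1 where K16R had 1 and 2. The difference therefore also takes in differences between the parental strains. With a term for the parental strain, chosen after seeing the data, the same 3 genes passed.

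Among genes at the ends of the K12R list, DDR2, YGP1, HXT15 and MPC54 were further from 0 in some strains with more substitutions. YGP1, HXT15 and MPC54 were closer to 0 with all 4 substitutions than in some strains with fewer. DDR2 averaged 0.72 in K12R, 1.45 in K5R/K12R, 1.52 in K8R/K12R, 0.74 in K12R/K16R, 2.73 in K5R/K8R/K12R and 3.81 in the mutant with all 4 substitutions. YGP1 averaged 0.81 in K12R, 1.73 in K5R/K8R/K12R and 1.11 in the mutant with all 4. HXT15 averaged -1.19 in K12R, between -2.22 and -1.79 in the 3 mutants with 1 further substitution, and -1.47 in the mutant with all 4. MPC54 averaged -0.60 in K12R, -0.96 in K12R/K16R and 0.08 in the mutant with all 4. These values are a description, since the mutants share parental strains and no test of an order was made.

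**Figure D5:**
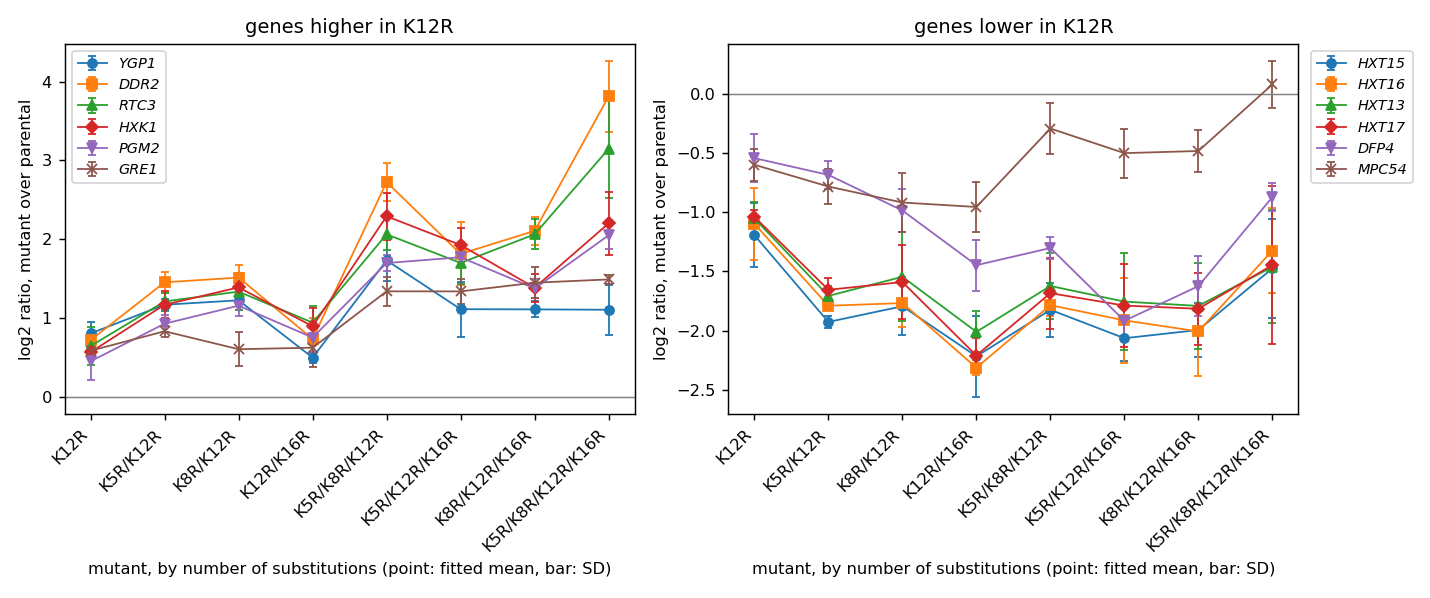
Fitted mean log2 ratio of mutant over parental strain (y axis; bars are the SD of the arrays) in the 8 mutants that carry K12R (x axis, by number of substitutions), for 6 genes higher and 6 genes lower in K12R alone. DDR2 climbs to 3.81 in the mutant with all 4 substitutions, while the HXT genes are lowest with 2 substitutions in K12R/K16R.

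The K12R strains were compared with MDY474 on 1 array only, whose spread was assumed to be that of the other strains in the fit. MDY474 minus MDY457, which sets array 3 against arrays 1 and 2 and so compares strains and parental strains together, gave 3 genes past the threshold (0.0542% of 5537 tested), 1 higher (0.0181%) and 2 lower (0.0361%), with an unadjusted p under 0.05 for 112. The count was 22 without array 1 and 2 without array 2. VHT1, the biotin transporter gene, had 1.50 in MDY474, against -0.14 and -0.32 in MDY457 (difference 1.73 ± 0.32, SE, limma adjusted p = 0.0152, and 0.221 without array 2). ADH7, an alcohol dehydrogenase gene, had -1.19 in MDY474, against 0.17 and -0.03 in MDY457 (difference -1.26 ± 0.18, SE, limma adjusted p = 0.000463). COS12 had -1.28 in MDY474, against 0.37 and -0.29 in MDY457 (difference -1.32 ± 0.20, SE, limma adjusted p = 0.000557). The fitted means of these 3 genes therefore describe neither strain, and none of them passed the threshold for K12R against parental.

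Near ADH7, at the right end of chromosome III, 3 further genes were low in MDY474. RDS1 had -1.17 in MDY474, against 0.07 and -0.23 in MDY457, YCR102C had -0.68 against -0.15 and -0.15, and AAD3 had -0.52 against 0.13 and 0.16, with adjusted p-values of 0.0712, 0.84 and 0.107. In K5R and K8R the strains measured against MDY470 minus those measured against MDY453 differed at ADH7 by 0.08 and -0.02, and the K12R strain difference went beyond their mean by -1.29 (limma adjusted p = 0.0113). For VHT1 and COS12 the same comparison gave 1.90 and -1.11 with adjusted p-values of 0.114 and 0.136, which did not pass.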

How the data were processed

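RNA was hybridised on 2-colour arrays, per the labels with the parental strain in channel 1 and the mutant in channel 2. The deposited table holds the authors' log2 ratio of each of 6720 probes on each of 55 arrays. Dyes, background correction, normalization and direction were not stated by any source at hand. The gene annotation of the platform names 1 gene for 5570 probes and none for 1150, which were left out, and 5565 matched the R64 gene table, used for names, gene order and distance to chromosome ends. Values at the ratio limit (43 in named probes, 2 of them on K12R arrays) were treated as missing. Each array was centred on its median, and probes of 1 gene were averaged (29 genes), which gave 5540 genes; a minimum of values in 2 of 3 samples removed 0.

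The technical pair of the mutant with all 4 substitutions was averaged, leaving 54 samples. limma 3.58.1 in R 4.3.3 fitted 1 mean per mutant with lmFit and eBayes, with the mutant strain as a random block (correlation 0.205), two-sided, with Benjamini-Hochberg adjustment over all genes and a threshold of 0.05. All adjusted p-values come from limma. A fitted mean weights arrays by strain. A fit with 1 mean per mutant strain gave MDY474 minus MDY457. The fits were tested on simulated data. Text names the 15 highest and 15 lowest genes past the threshold, up to 5 a direction for contrasts, 3 for strains, up to 4 by list for 37 lists, and all members of a list that passed in small counts. Members and lists were chosen with earlier results of these data known. Alternatives covered centring, scaling, values at the limit, unnamed probes, the samples fitted, the block, array weights and each array left out; terms for parental strain and title ending were chosen after seeing the data. The number of arrays limits the precision. Sequences were not analysed here.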

Additional observations from a re-analysis of the deposited data

Results flagged for a closer look

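Between K12R and K16R the largest tested differences were at genes of mating: GPA1 (3.03), MFA1 (2.85), MFA2 (2.73), STE2 (2.55) and BAR1 (2.27), all on the log2 scale as K12R minus K16R and higher on every K12R array than on every K16R array. COS12 (-1.50), HPF1 (-1.23), YAR068W (-0.82), CSS1 (-0.72) and TIR3 (-0.57) differed in the other direction. The COS12 value holds 3 unlike arrays of K12R (0.37, -0.29 and -1.28).

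The change with K12R added to another substitution minus the change with K12R alone was -0.81 for YIR042C, -0.57 for DAL4 and -0.38 for YVH1.

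Between the K12R strains, MDY474 minus MDY457 gave 1.73 for VHT1, -1.26 for ADH7 and -1.32 for COS12. MDY474 was measured on 1 array and against another parental strain, so the strain, its parental strain and that array cannot be told apart.

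Of 958 probes without a gene name that could be tested, 14 passed the threshold in K12R (4 higher and 10 lower, 1.46%), against 2.87% of the named genes.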

How the results depend on the processing

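The 159 genes past the threshold in K12R against parental became 1943 with arrays scaled to the same spread, 843 with the K12R arrays alone, 2251 with the single mutants alone, 429 without the strain block, 1938 with array weights, 25 with the MDY457 arrays averaged, 316 with a term for the title ending, 61 with arrays against MDY470 and 0 with those against MDY453 (limma; 288 genes at an unadjusted p under 0.05). Leaving out 1 K12R array gave 10 to 115 (without array 3 and array 1). The higher and lower counts were 99 and 60, and without centring 129 and 51. For K12R minus the mean of K5R and K8R the 0 became 4 (scaled), 17 (single mutants), 30 (array weights) and 7 (MDY470), and stayed 0 without any 1 K12R array. For K12R minus K16R the 133 became 608 (scaled), 1444 (single mutants), 947 (array weights) and 27 (MDY453), and 99 to 108 without 1 K12R array. For K12R added minus alone the 3 became 1721 (scaled), 116 (no strain block), 1431 (array weights), 129 (MDY470) and 96 (title ending), and 0 to 5 without 1 K12R array. For MDY474 minus MDY457 the 3 became 21 (scaled), 22 without array 1 and 2 without array 2. All 159 genes were also past the threshold when scaled, with the single mutants alone, without the block and with array weights. Those fits each passed more genes than the main fit, so they were a weak check. Of the 159, 151 passed with the K12R arrays alone, 139 with a term for the title ending and 25 with the MDY457 arrays averaged. Without array 1, 2 and 3, 93, 22 and 10 of them passed. The cause of these shifts was not tested.

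Among the 166 genes named for K12R against parental the sign changed for COS12 (0.0392 with MDY453 alone and without array 3, and -0.784 without array 1, the ends of its range) and, with MDY470 alone, for ASG7 (0.0454), MF(ALPHA)2 (0.0603), HMLALPHA1 (-0.0393), HMX1 (-0.0086), RPA49 (0.0147) and CSE4 (-0.0024). None of these 7 had passed the threshold. No paired analysis was possible because the titles of the single mutants carry no replicate number. The title ending, which recurs across mutants and is not known to pair samples, was fitted as a term instead, after the data had been seen; beside the counts above it gave 0 for K12R minus the mean of K5R and K8R and 193 for K12R minus K16R. Fits that leave a contrast without arrays (the K12R arrays alone for contrasts between mutants, a single parental strain for the strain difference) were not run.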

Other observations

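Array 2 of K12R held several genes that were far from 0 there and closer to 0 on arrays 1 and 3, named here after their values were seen. YDC1, a ceramidase gene, had -1.43 on array 2, against -0.06 and -0.04 on arrays 1 and 3. RIF2, a telomere length regulator, had -0.93 on array 2, against -0.0075 and 0.06. ORT1, the mitochondrial ornithine transporter gene, had -0.82, against -0.01 and -0.13, and RPD3, the histone deacetylase gene, had -0.66, against 0.00491 and -0.02. GID10 had -1.53 on array 2, against 0.33 on array 1 and -0.21 on array 3. None of these 5 passed the threshold in K12R, and strain MDY457 is on both arrays 1 and 2.

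Of a pair of biotin genes, BIO2 had similar ratios in the K12R strains and VHT1 did not, with MDY474 measured on 1 array. BIO2 had -0.48 in MDY474, against -0.49 and -0.46 in MDY457, and it was also low in the other single mutants (fitted means of -0.35 in K5R, -0.62 in K8R and -0.76 in K16R). VHT1, the biotin transporter gene, had 1.50 in MDY474, against -0.14 and -0.32 in MDY457.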
